A study of Mus musculus with 12 samples.

Results

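H3K4me3 peaks of C2C12 cells at day 1 of differentiation were compared with those of myotubes at day 5. The lists were taken by antibody and cell state, restricted to chromosomes 1 to 19 and X, and hold 17653 peaks at day 1 and 26024 in myotubes, together 43677 of the 94584 peaks in the 8 lists of the series. C2C12 is an established mouse myoblast line that withdraws from the cell cycle and fuses into multinucleated myotubes when serum is lowered. The series mapped H3K4me3 and the methyl-CpG binding protein MBD2 by CUT&RUN, in which an antibody tethers a nuclease to its target and the released fragments are sequenced. Samples came from day 0, day 1 and, at day 5, from myotubes and from reserve cells, which stay unfused with a single nucleus. The day 1 cells and the myotubes both carried no named genetic change and were differentiated in DMEM with 2% horse serum and antibiotics. The day 5 cells were parted into myotubes and reserve cells by mild trypsin treatment, and no such step is described for day 1. A difference in the mix of cells between the samples therefore cannot be told apart from a difference within cells. The group of the myotube library is abbreviated in its title and was read as myotubes from the series' design text. Each state is 1 library, so differences could not be set against replicates and carry no p-values. Intervals of shares (exact Clopper-Pearson, 95%) cover counting error only.

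H3K4me3 is laid down by the SET1 and MLL methyltransferases around the starts of genes that are active or poised, and CpG-rich promoters carry it in most cell types. Long H3K4me3 domains are known for cell identity genes that are transcribed strongly. In skeletal muscle, the factors MYOD1, myogenin and the MEF2 family switch on the genes of the contractile apparatus, while the cell cycle genes of the myoblast are silenced.

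The upstream sequences of 8 genes show the kinds of promoter that the comparison turned on. They are the 250 bases before the start, 5′ to 3′ on the gene's strand, from the RefSeq promoter table of GRCm38.p6 (the assembly of mm10), with every CG dinucleotide in capitals. The first 3, Myh1 (fast IIX myosin heavy chain), Cav3 (caveolin of the muscle membrane) and Casq1 (calcium store of the sarcoplasmic reticulum), gained a peak in myotubes. Lmod2, an actin filament nucleator, went from a short peak to a long one. Col6a3, a collagen VI chain, and Aqp1, a water channel, had a peak at day 1 alone. Cdc20, the activator of the anaphase ubiquitin ligase, and Top2a, the topoisomerase of dividing cells, kept a shorter peak.
Myh1 (chr11:67199852-67200101, + strand): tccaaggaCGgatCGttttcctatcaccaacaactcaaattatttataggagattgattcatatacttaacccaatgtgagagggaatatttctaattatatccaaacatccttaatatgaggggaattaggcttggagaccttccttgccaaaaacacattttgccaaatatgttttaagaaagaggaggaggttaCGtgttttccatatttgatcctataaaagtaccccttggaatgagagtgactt
Cav3 (chr6:112459255-112459504, + strand): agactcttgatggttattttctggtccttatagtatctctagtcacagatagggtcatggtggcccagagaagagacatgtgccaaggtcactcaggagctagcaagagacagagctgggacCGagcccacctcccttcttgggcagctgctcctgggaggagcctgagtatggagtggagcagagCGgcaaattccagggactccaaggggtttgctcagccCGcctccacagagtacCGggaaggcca
Casq1 (chr1:172219896-172220145, - strand): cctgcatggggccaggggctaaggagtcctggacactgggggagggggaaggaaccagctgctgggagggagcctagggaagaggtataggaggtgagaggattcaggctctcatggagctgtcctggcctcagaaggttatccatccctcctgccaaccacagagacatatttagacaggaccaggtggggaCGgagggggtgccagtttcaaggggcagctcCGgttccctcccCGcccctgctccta
Lmod2 (chr6:24597521-24597770, + strand): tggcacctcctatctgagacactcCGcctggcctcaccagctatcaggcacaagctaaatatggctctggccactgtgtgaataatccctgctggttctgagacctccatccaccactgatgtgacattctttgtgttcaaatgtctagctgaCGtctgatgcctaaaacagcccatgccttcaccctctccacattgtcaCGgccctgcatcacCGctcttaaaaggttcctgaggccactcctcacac
Col6a3 (chr1:90843972-90844221, - strand): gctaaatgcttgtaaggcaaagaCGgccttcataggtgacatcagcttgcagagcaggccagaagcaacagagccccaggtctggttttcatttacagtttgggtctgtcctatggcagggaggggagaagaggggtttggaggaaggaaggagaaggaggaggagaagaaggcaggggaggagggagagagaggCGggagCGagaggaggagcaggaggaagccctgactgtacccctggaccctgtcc
Aqp1 (chr6:55336049-55336298, + strand): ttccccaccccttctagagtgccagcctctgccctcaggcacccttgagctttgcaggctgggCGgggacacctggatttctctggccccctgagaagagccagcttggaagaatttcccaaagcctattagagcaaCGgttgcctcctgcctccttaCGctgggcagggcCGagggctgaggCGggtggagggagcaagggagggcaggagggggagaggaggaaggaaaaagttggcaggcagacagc
Cdc20 (chr4:118437344-118437593, - strand): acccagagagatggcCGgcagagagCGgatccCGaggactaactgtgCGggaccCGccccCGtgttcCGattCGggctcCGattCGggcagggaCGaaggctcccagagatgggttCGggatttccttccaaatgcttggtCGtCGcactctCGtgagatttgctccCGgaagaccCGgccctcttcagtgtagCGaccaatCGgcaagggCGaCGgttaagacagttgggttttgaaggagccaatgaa
Top2a (chr11:99024190-99024439, - strand): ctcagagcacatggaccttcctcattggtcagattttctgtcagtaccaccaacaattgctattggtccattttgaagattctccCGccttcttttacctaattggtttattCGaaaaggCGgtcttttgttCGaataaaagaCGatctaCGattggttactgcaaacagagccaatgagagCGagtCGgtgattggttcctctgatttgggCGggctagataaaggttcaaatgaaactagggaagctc

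These stretches hold 3 CG dinucleotides at Myh1, 4 at Cav3, 3 at Casq1 and 4 at Lmod2, against 21 at Cdc20 and 9 at Top2a. Col6a3 holds 3 and Aqp1 5. The 8 were chosen after their values were seen and do not stand for their groups: the same stretch holds 14 at Col6a2 and 11 at Bmp4, which also lost a peak, and 6 at the cell cycle gene Tk1.

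At promoters the lists largely shared their peaks, and away from promoters they did not. A promoter peak is one within 1 kb of any transcript start in the basic set of the GENCODE M21 annotation, and peaks sharing at least 1 bp were matched. Of 12357 day 1 promoter peaks 11921 met a myotube peak (96.5%, interval 96.1 to 96.8), and of 13109 myotube promoter peaks 11924 met a day 1 peak (91.0%). Away from promoters 3929 of 5296 day 1 peaks (74.2%, 73.0 to 75.4) but 3867 of 12915 myotube peaks (29.9%) met the other list. Joined into regions, 11852 promoter regions lay in both lists, 436 in day 1 alone and 1185 in myotubes alone. The other regions numbered 3503 in both, 1367 in day 1 alone and 9048 in myotubes alone.

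Regions of 1 list alone were mostly weak and short. The authors' fold enrichment, the fragments over the summit against the local background, had a median of 4.50 in the 9048 other regions of myotubes alone, and 5909 of them lay under 5. The median was 4.98 in myotube-alone promoter regions and 5.77 in day 1-alone promoter regions, against 54.4 and 34.5 (day 1 and myotubes) in promoter regions of both lists. At a fold of 10 or more stood 169 promoter and 346 other regions of myotubes alone, and 86 promoter and 118 other regions of day 1 alone. The lists themselves differ in these respects: the median peak had a fold of 38.6 and a pileup of 104 fragments at day 1, and 9.55 and 24 in myotubes. The lowest local background was alike, 1.25 and 1.22 fragments per base. With equal numbers of peaks, the strongest 17653 of each list, 59.8% of other day 1 peaks and 52.0% of other myotube peaks met the other list, shares much closer to each other than those of the whole lists.

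**Figure D1:**
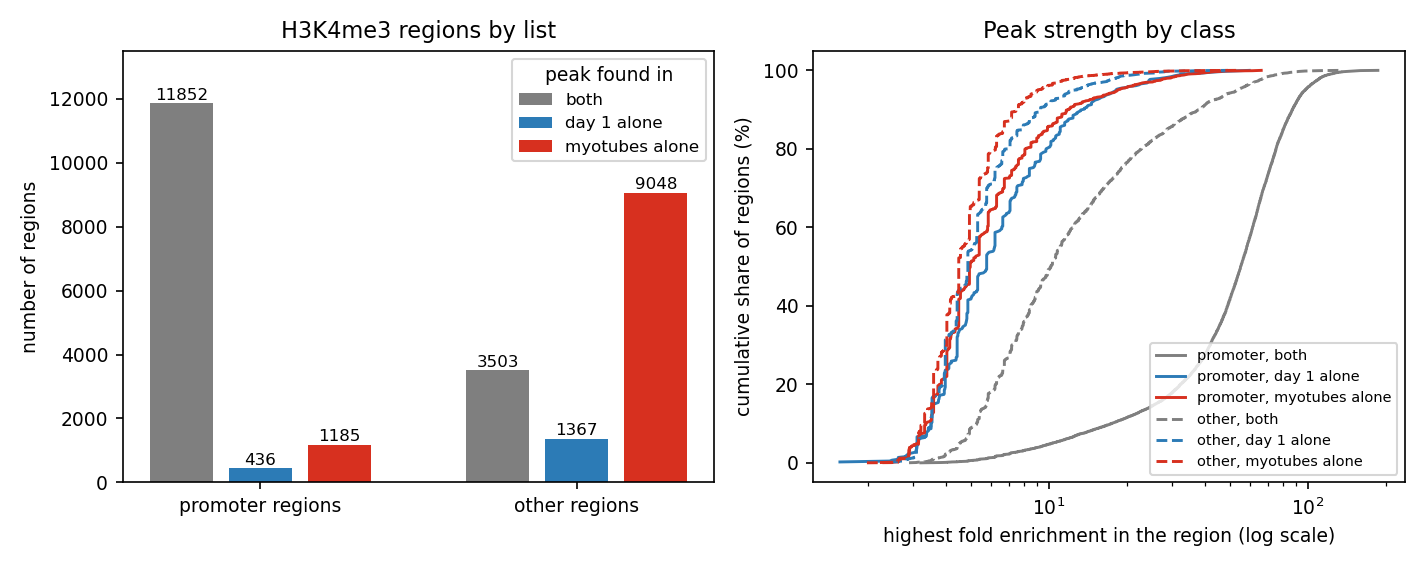
Left, number of H3K4me3 regions (bars) found in both lists, in day 1 alone or in myotubes alone, for promoter and other regions. Right, cumulative share of regions (percent) by the highest fold enrichment in the region (log axis). The 1-list classes rise steeply below a fold of 10, whereas 95.2% of promoter regions in both lists reach 10 or more.

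The day 0 list separates the 1-list classes. A day 0 H3K4me3 peak met 75.7% (71.4 to 79.6) of promoter regions in day 1 alone but 16.8% (14.7 to 19.05) of those in myotubes alone, and away from promoters 71.5% and 12.7%. Peaks of day 5 reserve cells met 41.7% of the day 1-alone and 6.75% of the myotube-alone promoter regions. Among day 1-alone promoter regions of fold 10 or more, 93.0% were met at day 0 and 81.4% in reserve cells. Myotube-alone promoter regions of that strength were met in 16.0% at day 0 and 17.8% in reserve cells. Regions of day 1 alone were thus mostly marked at day 0 already, and the strong ones were mostly marked in reserve cells too. Day 0 MBD2 peaks met 21.4% of promoter regions in both lists, 8.26% of those in day 1 alone and 7.26% of those in myotubes alone. Away from promoters they met 38.0%, 21.4% and 12.3%. The MBD2 lists of the compared states met few promoter regions, 1.67% (day 1) and 1.15% (myotubes) of those in both, 1.15% and 0.229% of those in day 1 alone, and 0.338% and 0.422% of those in myotubes alone. The MBD2 shares were not adjusted for the number of peaks in each MBD2 list, which is not given here, so they show no change in MBD2 between states. Nor were they adjusted for region length. Promoter regions of both lists had a median of 2389 bp at day 1, against 572.5 bp (day 1 alone) and 578 bp (myotubes alone).

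Where a region was in both lists, its length was measured as the bases that each list's peaks cover in it. Promoter regions had a median of 2389 bp at day 1 and 2343.5 bp in myotubes, with a median log2 ratio of -0.02 (quartiles -0.22 and 0.18). By this measure 467 of 11852 (3.94%) were at least 2-fold longer in myotubes and 326 (2.75%) at least 2-fold shorter. Other regions went from a median of 789 to 1035 bp, with 713 of 3503 (20.4%) longer and 177 (5.05%) shorter by that limit. Day 1 peaks covered 5 kb or more in 718 shared promoter regions and myotube peaks in 978, 557 of them the same regions, where the bases of separate peaks in a region are added up. Single peaks of 5 kb or more, at promoters or elsewhere, numbered 690 and 1014.

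The deposited fold was lower in myotubes at shared promoter regions, with a median log2 ratio of -0.62. As deposited, 315 promoter regions were 2-fold higher and 2896 2-fold lower in myotubes. Set against that median, 866 (7.31%) were higher and 648 (5.47%) lower. The other shared regions had 380 higher and 413 lower as deposited, and 1116 (31.9%) higher and 109 (3.11%) lower against the same median. Below, relative fold means the log2 difference after this median is taken away. Length and fold went together: 288 promoter regions were both longer and higher and 151 both shorter and lower, against 1 longer and lower and 2 shorter and higher. The relation is a description of regions within 1 pair of libraries, in which both values come from the same fragments.

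**Figure D2:**
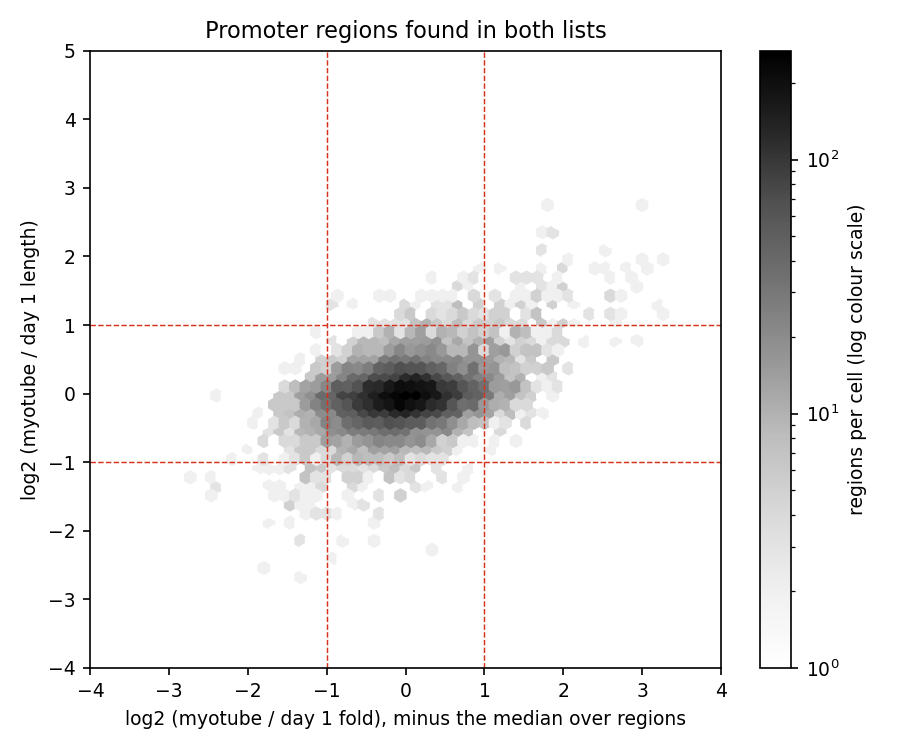
Each cell counts promoter regions found in both lists (log colour scale) by the log2 ratio of myotube to day 1 fold, minus its median of -0.62 (x), and the log2 ratio of length (y). Dashed lines mark 2-fold. The 288 regions longer and higher in myotubes fill the upper right corner and the 151 shorter and lower ones the lower left, the other corners hold 1 and 2, and 5 regions lie outside the axes.

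Of 21755 protein-coding genes, 12069 had a promoter peak in both lists. Another 498 gained one in myotubes, 5.29% of the 9420 without a day 1 peak, and 266 lost it, 2.16% of the 12335 with one. With equal numbers of peaks the balance turned, to 280 gained and 484 lost. Of the gained genes 125 had a fold of 10 or more, and 43 had a day 1 peak within 3 kb of a start. Breadth, the bases under peaks within 5 kb of the 5′ end, could be compared for 11687 genes, of which 389 (3.33%) were at least 2-fold broader in myotubes and 267 (2.28%) at least 2-fold narrower. Relative fold was 2-fold higher at 693 genes (5.74%) and 2-fold lower at 621 (5.15%). These shares are the background for the gene groups below, whose peaks are described by length and by fold. Below, gains and losses are mostly counted over all genes of a list, a wider base. Of genes unmarked at day 1, 17 of 21 sarcomere genes gained a peak, 8 of 9 at the Z-disc and M-band. Gains were 6 of 7 for excitation and calcium release and 2 of 3 at the neuromuscular junction. They were 3 of 3 for fusion, 1 of 1 in the dystrophin complex and 4 of 8 for energy metabolism. Of genes marked at day 1, 3 of 20 matrix and 3 of 16 satellite and reserve cell genes lost it.

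The marker genes were checked against the labels. Peaks stood at 7 of 8 myotube markers at day 1 and at 8 of 8 in myotubes, with 17309 and 61057 bp when all promoter peaks of each gene are added up. The 5 myoblast markers all carried peaks in both, which add up to 37644 and 25469 bp. They did not move together, and Pax7 (15768 and 4326 bp) made most of that drop. Only peaks within 1 kb of a start are added up, and myotube peaks covered 9848 bp of the Pax7 day 1 domain in 4 pieces. Myf5 (8129 and 3578 bp) and Cdh15 (5000 and 4556 bp) were also shorter in myotubes. Myod1 (3846 and 5282 bp) and Des (4901 and 7727 bp) were longer. The 10 liver genes were without a peak in both lists. Among other cell types the fibroblast markers Thy1 and Lum, the smooth muscle markers Myh11 and Cnn1, the neuronal markers Rbfox3 and Syp, and the blood and endothelial markers Ptprc, Adgre1, Spi1 and Cdh5 were without a promoter peak in both lists. Those with one were Col1a1, Pdgfra, Acta2 and Tubb3 in both lists, and Pecam1 (533 bp, fold 5.77) at day 1 alone.

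Genes of the sarcomere, the contractile unit of muscle, gained peaks and breadth in myotubes. Over 64 genes of the thick filament, the thin filament, and the Z-disc and M-band, 17 gained a peak, 1 lost it, 42 had it in both lists and 4 in neither. Of the 40 whose breadth could be compared 21 were 2-fold broader and 0 narrower, with a median log2 change of 1.02 against -0.01 for all coding genes. Median relative fold at the 42 was 2.07, and 28 of them were 2-fold higher and 1 lower. With equal numbers of peaks 14 genes gained one and 20 were broader, but within 2 kb of the 5′ end 10 were broader.

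Thick filament genes were mostly unmarked at day 1. Myh1 had no day 1 peak and one of 10358 bp at fold 27.4 in myotubes (mm10 chr11:67197372-67207729), and no peak at day 0 or in reserve cells. Myh7 (slow myosin) gained a peak of 2986 bp, Myh8 (perinatal) one of 2755 bp at fold 8.10, and Myh4 (fast IIB) a weak one of 374 bp at fold 4.98. Myh2 (fast IIA) was unmarked throughout. Myh3, the embryonic heavy chain, already had 1249 bp at fold 5.60 at day 1 and 10192 bp at fold 29.5 in myotubes. Myh13, the extraocular heavy chain, ran the other way, with 1070 bp at fold 14.6 at day 1, 1368 bp at day 0 and no peak in myotubes, and it was the only sarcomere gene to lose its peak, a call that ended when the promoter window was set to 500 bp. Myl1, the fast essential light chain, had the longest myotube peak among the genes of the 23 gene lists described here, 16392 bp (chr1:66929492-66945883) against 3643 bp at day 1. Mybpc2, fast myosin binding protein C, gained 4508 bp, Mybpc1, the slow form, 3432 bp, and Mylk2, the kinase of the light chains, 4998 bp at fold 25.8. Mybph, myosin binding protein H, lengthened from 2481 to 11625 bp.

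Thin filament genes, in contrast, were marked early: 19 of 20 had a peak at day 1, and only Tmod4 gained one (588 bp, fold 3.86). Lmod2 went from 686 bp at fold 4.12 to 9446 bp at fold 51.1, a relative fold of 4.25. Actc1, the cardiac actin of developing muscle, went from 1779 to 10304 bp, and Acta1, skeletal actin, from 2172 to 9377 bp. Among the troponins, which hold the calcium switch, Tnni2 went from 553 to 4506 bp, Tnnc2 from 1145 to 6267 bp and Tnnt3 from 1932 to 8553 bp. Tnnc1 (slow troponin C) was long at both times, 7540 and 9334 bp. Neb, the giant ruler of the thin filament, went from 968 bp at fold 8.35 to 4589 bp at fold 45.9. The tropomyosins, which lie along the actin filament, varied among themselves. Tpm1 had 9829 and 9861 bp, Tpm2 had 6043 and 8002 bp with a relative fold of -1.06, and Tpm3 went from 4305 to 11373 bp with a relative fold of -0.92.

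At the Z-disc and M-band 8 of 27 genes gained a peak and 9 of 18 were broader. Myom2, an M-band crosslinker, gained 10302 bp at fold 53.5, with a day 1 peak within 3 kb of a start. Tcap, the titin cap, gained 3784 bp at fold 32.1, a peak shared with its neighbour Pnmt. Csrp3, a LIM protein of the Z-disc, gained 4992 bp and Myot, myotilin, 3899 bp. Smpx, a small costamere protein, went from 327 to 9223 bp and Myoz2, a calcineurin-binding Z-disc protein, from 285 to 4448 bp. Trim63, the ubiquitin ligase MURF1, went from 1302 bp at fold 4.78 to 6868 bp at fold 56.7, and Trim54, its relative, from 1735 to 6821 bp. Des, the intermediate filament of muscle and already a myoblast gene, had 4901 and 7727 bp with a relative fold of -0.01.

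**Figure D3:**
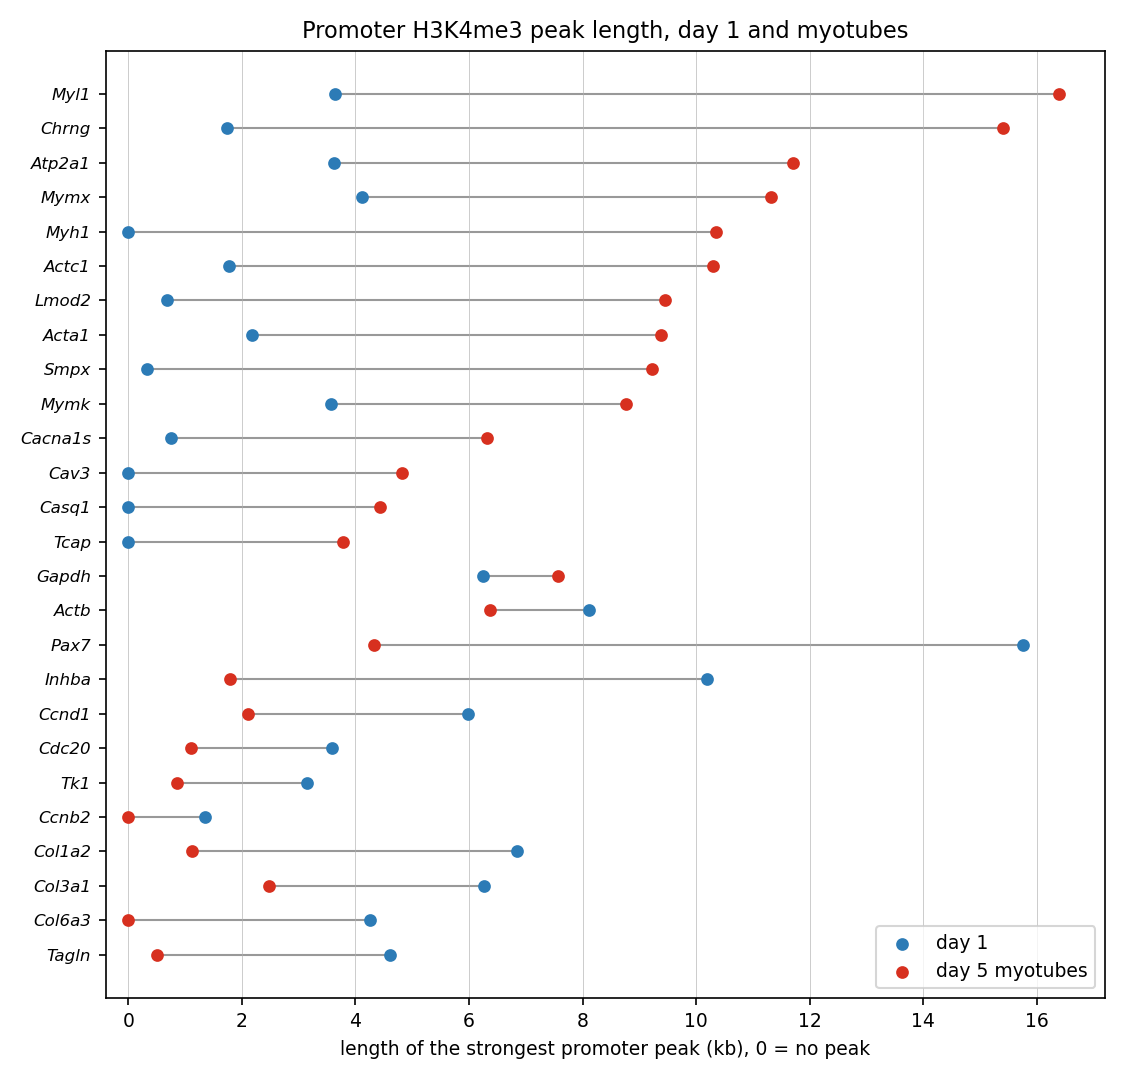
Length in kb of the strongest promoter peak of selected genes at day 1 (blue) and in day 5 myotubes (red), 1 library each, with 0 for no peak. Muscle genes from Myl1 to Tcap extend to the right in myotubes, Gapdh and Actb stay within about the same length, and Pax7, Inhba, cell cycle, collagen and Tagln peaks are longer at day 1.

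Genes of excitation and calcium release followed the sarcomere. Of 22 such genes 6 gained a peak and 0 lost one, and 7 of 15 were broader (3 within 2 kb). Casq1 gained 4426 bp at fold 28.3, Trdn, which anchors calsequestrin, 4961 bp, and Scn4a, the muscle sodium channel, 1844 bp. Cacna1s, the voltage sensor, went from 755 to 6322 bp, and Atp2a1, the fast calcium pump, from 3626 to 11704 bp. Ryr1, the calcium release channel, was marked at all 4 states, with a peak of 1223 bp at day 0 and 1967 bp at day 1, and at day 5 of 4895 bp (myotubes) and 1149 bp (reserve cells). Clcn1, the chloride channel, gained 1632 bp, and Pvalb, the fast-fibre calcium buffer, 331 bp at fold 5.81.

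At the neuromuscular junction 2 of 13 genes gained a peak, Ache (acetylcholinesterase, 4165 bp at fold 27.0) and Colq (its collagen tail, 2722 bp), and 3 of 10 were broader (1 within 2 kb). Chrng, the fetal receptor subunit, went from 1733 to 15412 bp, Chrnd from 1779 to 5952 bp, and Chrne, the adult subunit, had no promoter peak at either time. Musk, the agrin receptor kinase, had a tall peak at both, with fold 144 over 3896 bp and 70.8 over 4749 bp.

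Fusion genes were mostly in place at day 1: 16 of 19 were marked in both lists and 3 gained a peak. Mymk and Mymx, the myoblast fusogens, had peaks of 3574 and 4111 bp at day 1, and of 8769 and 11315 bp in myotubes, with relative folds of 1.35 and 3.01. Cav3 gained 4814 bp at fold 30.7 (chr6:112459240-112464053). Tmem182, a membrane protein of muscle, gained 4258 bp, and Adgrb1, a phosphatidylserine receptor, 217 bp at fold 3.92. Dysf, which mends membrane tears, went from 2183 to 5097 bp. Other members such as Cdon (8184 and 8142 bp), a cell surface partner of N-cadherin, and Rac1 (3394 and 2968 bp) kept their lengths within 2-fold. In the dystrophin complex 1 of 13 gained a peak (Dmd itself, 2947 bp at fold 8.55) and 4 of 11 were broader (1 within 2 kb), among them Sgca, from 744 to 2133 bp, whereas Utrn, the dystrophin homologue found in many cells, had 4269 and 4309 bp.

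Of 22 genes of muscle energy metabolism 4 gained a peak and 6 of 13 were broader. Mb, myoglobin, gained 5310 bp at fold 26.1, Cox7a1, a muscle isoform of cytochrome oxidase, 1082 bp and Ampd1, the muscle AMP deaminase, 1285 bp. Ckm, muscle creatine kinase, went from 1282 bp at fold 8.24 to 5001 bp at fold 54.0, Pygm, glycogen phosphorylase, from 906 to 4453 bp and Pgam2, the muscle phosphoglycerate mutase, from 666 to 3295 bp. Ppargc1a, the coactivator of mitochondrial genes, had 2302 and 2567 bp.

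All 18 myogenic regulators were marked at both times. Their median log2 breadth change was 0.09, with 1 of 16 broader (Myod1, 3846 and 7748 bp) and 0 narrower. Mef2c and Smyd1 could not be compared by breadth. By the added length of all promoter peaks, 3 of 18 were 2-fold longer, Mef2c, Smyd1 and Tead4, a TEAD factor, and 1 shorter, Myf5, against 431 and 327 of 12069 coding genes. Mef2c had 1881 bp at day 1 and a strongest peak of 7150 bp in myotubes, which stood at another start. Myog, myogenin, went from 2673 bp at fold 11.1 to 4706 bp at fold 45.4. Myod1 had 3846 bp at fold 25.6 and 5282 bp at fold 16.2. Myf5, the early determination factor, was shorter in myotubes, 8129 and 3578 bp, with fold 48.8 and 21.6. Myf6 (MRF4) had 2871 and 3380 bp. Smyd1, a muscle methyltransferase, went from fold 7.61 to 41.4 and Mef2d from 7792 to 14401 bp.

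**Figure D4:**
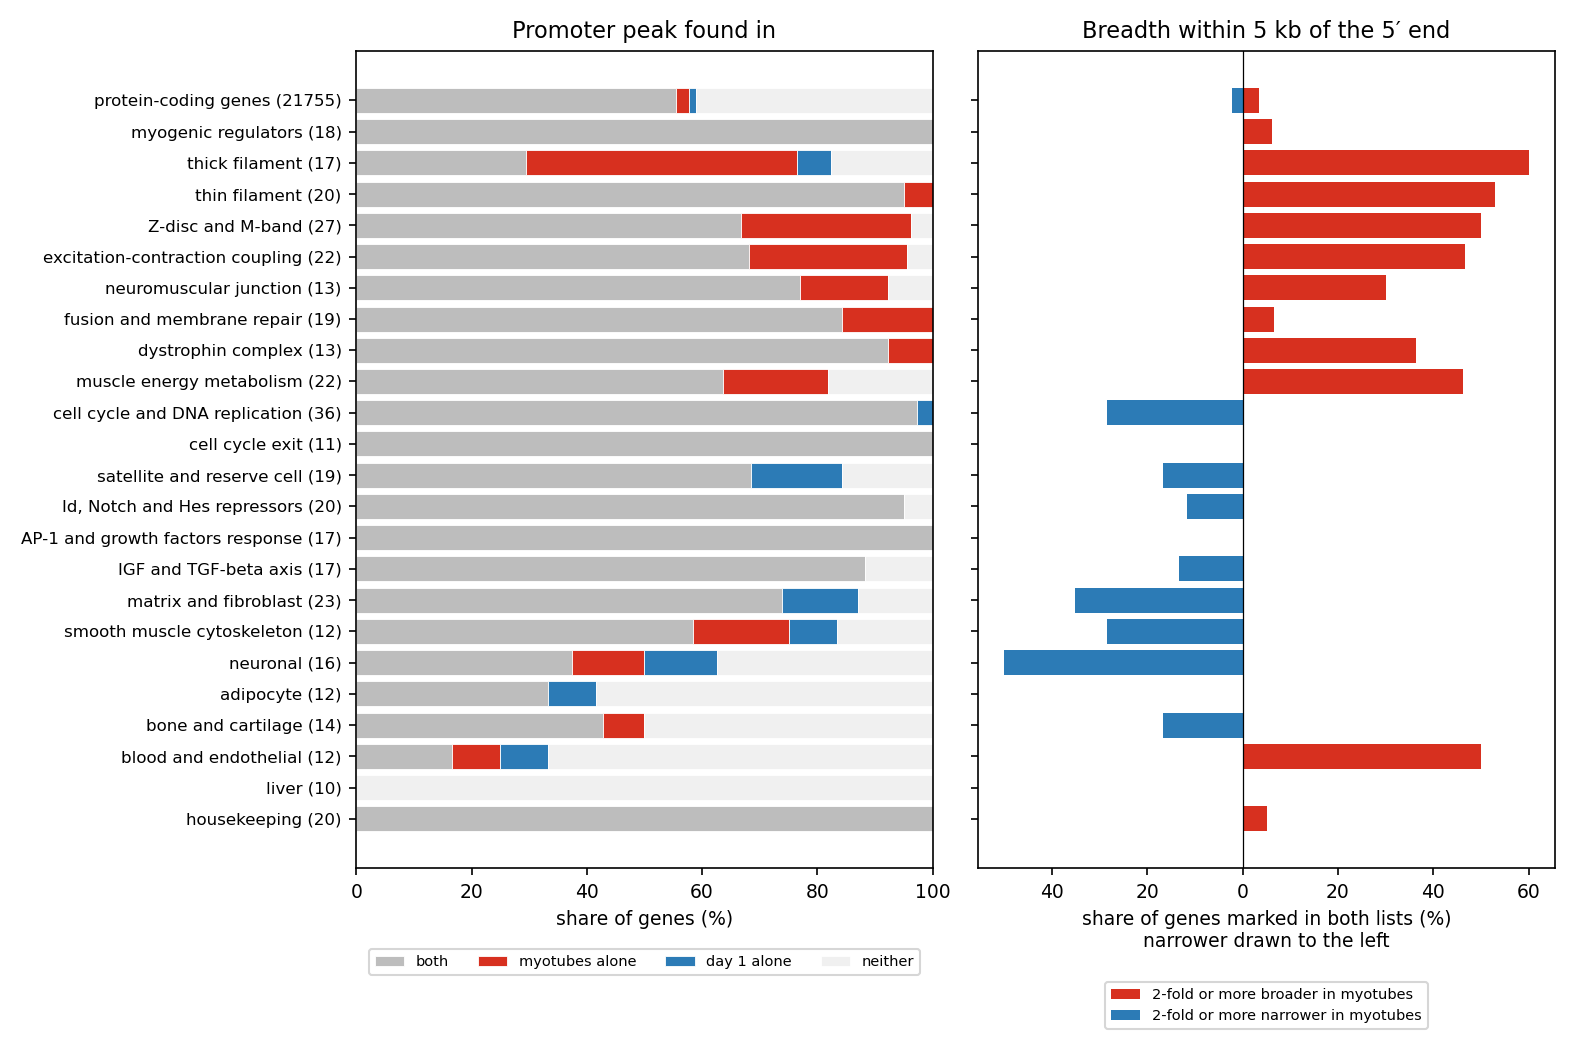
Left, share of the genes of each list (number in brackets) with a promoter peak in both lists, in myotubes alone, in day 1 alone or in neither. Right, share of genes marked in both whose breadth was 2-fold or more broader (to the right) or narrower (to the left), where the blood and endothelial bar is 1 gene of 2. Muscle lists extend to the right and the cell cycle and matrix lists to the left, against 3.33% and 2.28% of all coding genes in the top row.

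Cell cycle and DNA replication genes kept their peaks but with less length. Of 36 genes 35 were marked in both lists and Ccnb2, a mitotic cyclin, lost its peak (1355 bp at fold 15.8). Of the 35, 10 were 2-fold narrower and 0 broader, with a median log2 breadth change of -0.65, and 9 were 2-fold lower in relative fold. Tk1, thymidine kinase, went from 3144 bp at fold 53.2 to 858 bp at fold 6.30. Cdc20 went from 3594 to 1097 bp, Ccna2 from 2880 to 1416 bp, Plk1, the mitotic kinase, from 3895 to 1801 bp and Top2a from 2751 to 1145 bp. Ccnd1, the cyclin that links growth signals to the cycle, went from 5988 bp at fold 50.1 to 2114 bp at fold 14.4. In reserve cells Tk1 had 2544 bp, Cdc20 2266 bp and Ccnd1 2978 bp, lengths that lie between those of day 1 and myotubes. Mcm7, a helicase subunit, had 3870 and 3548 bp and E2f2, an S-phase factor, 4010 and 5260 bp. By contrast the 11 genes of cell cycle exit had a median breadth change of 0.03, with 0 broader and 0 narrower. In relative fold 3 of the 11 were 2-fold higher and 1 was 2-fold lower. Cdkn1a (p21) had 4662 and 8240 bp in its strongest peak. Cdkn1b (p27) had 14593 and 4763 bp in its strongest peak. Myotube peaks covered 8831 bp of this day 1 domain in 4 pieces, so that it was split and in part no longer covered. Its breadth within 5 kb was 7610 and 6056 bp.

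Matrix genes, many of them collagens, had less H3K4me3 in myotubes. Of 23 such genes 3 lost a peak and 6 of 17 were narrower, with a median of -0.52 and 0 broader or gained. Col6a3 had 4258 bp at fold 59.4 at day 1 (chr1:90840122-90844379), 2416 bp in reserve cells and no promoter peak in myotubes. Col6a2, another collagen VI chain, lost 2210 bp and Dcn, the proteoglycan decorin, 2006 bp. Col6a1 went from 2553 to 267 bp, Col1a2 from 6842 to 1122 bp and Col3a1 from 6268 bp at fold 80.3 to 2471 bp at fold 7.65. Col3a1 in reserve cells had 5626 bp at fold 54.3, and Col1a2 7425 bp. Bgn, biglycan, and Tnc, tenascin C, were narrower, 3468 to 1270 bp and 4143 to 1481 bp. Thbs1, thrombospondin, had 6742 and 6146 bp. Smooth muscle genes were split: Tagln went from 4604 to 511 bp, Myl9, a myosin light chain, from 3951 to 1153 bp, and Actg2, enteric actin, lost 4036 bp, while Lmod1 gained 2397 bp and Acta2 had 5560 and 4959 bp.

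Of 19 satellite and reserve cell genes 3 lost a peak and 2 of 12 were narrower. Pax7, the stem cell factor, had a domain of 15768 bp at day 1 and of 15513 bp in reserve cells. Its strongest myotube peak was 4326 bp, but myotube peaks covered 9848 bp of the day 1 domain in 4 pieces. Its breadth within 5 kb was 8318 bp at day 1 and 4636 bp in myotubes, with a relative fold of -0.06. Cd34 lost 1351 bp and Ngfr 2375 bp. Bmp4, a secreted growth factor, had 5883 bp at fold 63.9, but a myotube peak lay within 3 kb of a start. Where genes with a peak of the other list within 3 kb were set aside, 1 loss remained. Hgf went from 4713 to 2309 bp and Vcam1 from 4825 to 2303 bp. Of 20 Id, Notch and Hes genes 19 were marked at both times and 2 of 17 were narrower, Notch3, with a breadth of 4825 and 1892 bp, and Heyl, a Notch target, with 3770 and 1570 bp. As deposited, Id3, an inhibitor of MYOD1 partners, went from fold 72.4 to 12.4 and Id1 from 59.4 to 44.2. These values include the median log2 shift of -0.62 at shared promoter regions. With the shift taken away, relative fold was above 0 at 9 of the 19 genes, 2-fold higher at 0 and 2-fold lower at 4. Of 17 IGF and TGF-beta genes 2 of 15 were narrower, Inhba, the activin chain, from 10192 to 1790 bp and Igfbp4 from 2332 to 231 bp. The 17 genes of the AP-1 and growth factor response all had peaks at both times, 0 broader and 0 narrower, with Myc at 6078 and 6086 bp.

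Lists of other lineages were mostly unmarked or marked at both times. Of 16 neuronal genes 2 gained and 2 lost a peak, and 3 of 6 were narrower, led by Tubb3, a neuronal tubulin (5516 and 1318 bp), and Nefl, a neurofilament (2879 and 1143 bp). Of 12 adipocyte genes 4 were marked in both and Prdm16 lost 782 bp. Of 14 bone and cartilage genes 1 gained a peak, Alpl (369 bp), and Spp1, osteopontin, went from 4042 to 1449 bp. All 20 housekeeping genes were marked at both times, 1 was broader (Rpl3) and 0 narrower, with a median log2 breadth change of 0.01. As deposited, before the median shift is taken away, Gapdh had fold 40.0 and 40.7, and Actb 51.9 and 47.7. Mbd2, the methyl-CpG reader profiled in the series, had 3277 and 2858 bp, with fold 53.2 and 40.0 and a relative fold of 0.21.

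Over all named coding genes, the gains of high fold included Myom2 (53.5), Asb14 (46.8), a ubiquitin ligase adaptor, Camk2a (46.3), Ascl5 (45.4, in the peak of Cacna1s), Art1 and Art5 (43.6, one shared peak), Bricd5 (43.3), Rap2b (43.2) and Col13a1 (42.3), a collagen of the neuromuscular junction. Of these Myom2, Ascl5, Bricd5 and Rap2b had a day 1 peak within 3 kb, and Ascl5, Bricd5 and Rap2b also a day 0 promoter peak, so that their calls rest on where a peak ended. The losses of highest day 1 fold were Tslp (87.9), Bmp4 (63.9), Col6a3 (59.4), Pfkfb1 (49.0), Slx4 (43.4), Col5a3 (42.6), Kif14 (39.8), Aqp1 (39.1), Scml4 (39.1) and Prdx4 (32.4). No myotube peak lay within 3 kb of a start at Col6a3, Col5a3, Aqp1 or Prdx4, and one did at the other six. Large increases in breadth stood at Tpm3 (0 to 8979 bp), Myh1 (0 to 7681), Art1 (0 to 7421), Mef2c (0 to 6870), Afap1l1 (350 to 7051), Mylk2 (415 to 7068), Adamtsl2 (229 to 6750), Actc1 (3179 to 9680) and Grtp1 (2843 to 9262). The 0 at Tpm3 and Mef2c holds for the 5′ end alone, since both had a day 1 peak at another start (4305 and 1881 bp). Breadth decreased most at Pdgfc (7413 to 1855 bp), Col1a2 (5518 to 1122), Col6a3 (4579 to 355), Msc (4717 to 512), which encodes the repressor musculin, Sema7a (7257 to 3058), Tubb3 (5516 to 1318), Col3a1 (6865 to 2740), Aqp1 (4121 to 0), Tagln (4604 to 511) and Actg2 (4036 to 0).

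The longest day 1 peaks were 42577 bp across Hoxc9 to Hoxc11 and Hotair (fold 64.9), 30592 bp across Hoxa3 to Hoxa10, 25698 bp on chromosome 15 at no named gene, and 16066 bp at Plec, a cytoskeletal linker. Myotube peaks covered 40494 bp of the first and 27811 bp of the second in 4 pieces each, and 25478 bp of the third in 1 piece. The longest of myotubes was 28634 bp over Neat1, a nuclear long noncoding RNA, where day 1 peaks covered 16779 bp, and Lmna, nuclear lamin, had 16191 bp.

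Away from promoters, myotube-alone regions lay in introns in 64.6% and between genes in 30.5% of cases. Within 5 kb of a peak of the other list lay 31.1% of them and 41.5% of the day 1-alone regions. Of the 9048, 225 (2.49%) lay within 20 kb of the start of a gene in the muscle lists, as did 31 of 3503 shared regions (0.885%) and 7 of 1367 day 1-alone regions. Within 20 kb of any coding start lay 56.8% of myotube-alone, 52.1% of shared and 50.2% of day 1-alone regions. At a fold of 10 or more, 7 of 346 myotube-alone regions (2.02%, 0.817 to 4.12) lay that near a muscle list start. So did 19 of 1777 shared regions (1.07%, 0.645 to 1.66) and 1 of 118 of day 1 alone, and these intervals overlap. The 5 strongest of myotubes alone lay in an intron of Lgr6 (chr1:135082870-135086647, fold 53.1), 21550 bp from the start of Pdp1, a mitochondrial phosphatase (fold 48.1), 67689 bp from Skap2 (45.9), 19862 bp from Gpr142 (42.5 over 9472 bp) and 51647 bp from Zfp438 (40.0). The 5 strongest of day 1 alone lay 25104 bp from Fam92b (49.2), in introns of Nav2 (37.7) and Tns1 (35.0), 16021 bp from Pramef17 (29.0) and 35944 bp from Ifi204 (28.1). All 5 of day 1 alone were met by a peak at day 0 and in reserve cells. Of the 5 of myotubes alone, those near Pdp1 and Skap2 were met at day 0, and those near Skap2, Gpr142 and Zfp438 in reserve cells. A day 1 peak lay 1950 bp from the region near Skap2.

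Sequence differed between the classes in CpG content. In 300 bases around the strongest summit, CpG observed over expected had a median of 0.65 in promoter regions of both lists, 0.40 in those of day 1 alone and 0.28 in those of myotubes alone, and 57.5%, 30.5% (26.2 to 35.1) and 18.99% (16.8 to 21.3) reached 0.6. Promoter regions 2-fold longer in myotubes had a median of 0.41 and those 2-fold shorter 0.56. Away from promoters the medians were 0.34, 0.25 and 0.19 in the same order. At the promoters themselves, over 300 bases (250 before and 50 after the start nearest the peak), 76.1% of genes marked in both reached 0.6, 29.7% of gained and 29.7% of lost genes, and 11.5% of genes without a peak, so that the gained and lost genes were not ordered as the summits were. The intervals of gained and lost genes, 25.7 to 33.9 and 24.3 to 35.6, overlapped.

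**Figure D5:**
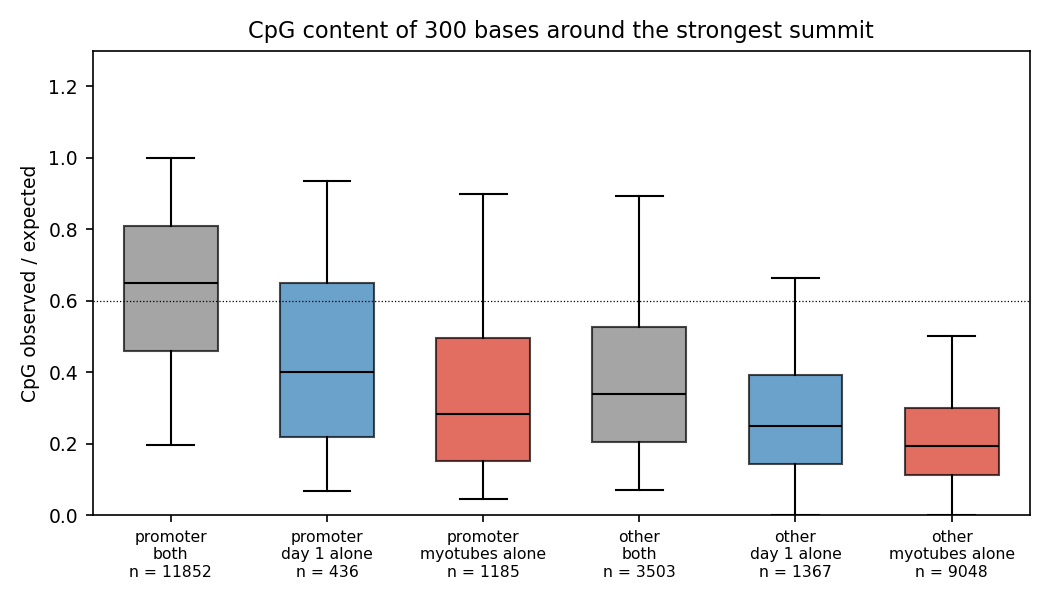
CpG observed over expected in the 300 bases around the strongest summit of each region, by class. Boxes give quartiles and median, whiskers the 5th and 95th percentiles, and the dotted line 0.6. Medians fall from 0.65 to 0.28 over the promoter classes and from 0.34 to 0.19 over the others.

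Motifs were counted on both strands of these 300 promoter bases. The MEF2 motif, which is read by the MEF2 factors, stood in 2.75% of all 21755 coding promoters, in 7.63% of the 498 gained and in 24 of the 125 gained at fold 10 or more (19.2%, interval 12.7 to 27.2). It stood in 4.12% of promoters without a peak in either list. In lost promoters it stood in 3 of 266 (1.13%), and all 3 were among the 65 of fold 10 or more (4.62%, interval 0.962 to 12.9). The stretch of Myh1 printed above holds 1 match. The E-box CAGCTG, a site form bound by MYOD1 and myogenin, stood in 15.3% of all promoters, 21.5% of the gained, 23.3% of the lost, 22.3% of those with 2-fold longer peaks and 16.0% of those without a peak. The looser CANNTG, which includes it, stood in 68.7%, 77.1%, 70.3%, 72.2% and 78.2%, so that gained promoters were close to those without a peak. TATAAA stood in 12.4% of all, 13.7% of gained, 11.3% of lost and 20.3% of unmarked promoters. TGANTCA, the AP-1 site form, stood in 6.63%, 9.24%, 7.52% and 9.64% in that order, and CATTCC, that of the TEAD factors, in 13.3%, 16.3%, 16.5% and 15.4%. In the 300 bases around the summit rather than the start, the MEF2 motif stood in 3.12% of promoter regions in myotubes alone, in 7 of the 169 of fold 10 or more (4.14%) and in 1.15% of all promoter regions. CAGCTG stood in 16.0% of those 169 and in 16.2% of all promoter regions. Around the summits of regions away from promoters CAGCTG stood in 21.9% of shared, 22.2% of day 1-alone and 22.7% of myotube-alone regions, and TGANTCA in 12.9%, 14.0% and 13.4%. MEF2 there stood in 2.28%, 2.56% and 4.75%. A match describes letters and is no measure of binding.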

How the data were processed

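CUT&RUN libraries were trimmed, aligned to mm10, filtered and peak-called with Trim Galore, Bowtie2, SAMtools and MACS2, per the submitters' processing notes, and the authors deposited 1 peak list per library. Not given in the sources used here were versions, MACS2 settings, the use of IgG as control and the later filtering, and the IgG libraries were not analysed here. Per the file headers, each peak has a pileup (signal, the fragments over its summit) and a fold enrichment (a ratio to the local background), both the authors' own values. The deposited −log10 p and q columns have damaged headers, and the order of columns that MACS2 writes told them apart. Read depth is not given, so the depth behind a peak is unknown beyond its pileup.

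Peaks on chromosomes 1 to 19 and X were joined by overlaps of at least 1 bp and called promoter peaks within 1 kb of a start in the basic set of GENCODE M21 (the full set is an alternative), in Python 3.11.15 with pandas 2.3.3, numpy 2.4.6 and scipy 1.17.1. A gene had a promoter peak where any of its starts did, and its length and fold are those of the strongest such peak. Gained and lost are calls at the 1 kb edge, neighbouring genes can share a peak, and breadth is taken at the 5′ end of the gene record, which can lie far from the marked start (as at Neb and Ckm). Calls were 2-fold or more. The scripts were tested on simulated data. With 1 library per state no test was run, and nothing says whether libraries came from separate cultures.

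The members, gene lists and markers were chosen with earlier results of these data known. Named by rule were up to 4 genes per list in each of gained, lost, broadened and narrowed, the 10 largest of each over all named coding genes, the 5 strongest regions away from promoters in each list alone, and fixed muscle, control and cell cycle genes including Mbd2. Other list genes were named after their values were seen, and some genes that the rule names are not reported here. Alternatives covered overlap, peak numbers, fold limit, promoter window, merging, annotation, breadth and sequence window.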

Additional observations from a re-analysis of the deposited data

How the results depend on the processing

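No paired analysis was possible because each state is 1 library and no test was run, and for the same reason no library could be left out. Shares of peaks met are given in the order day 1 promoter, other day 1, myotube promoter, other myotube, against 96.5%, 74.2%, 91.0% and 29.9%. With equal numbers of peaks they were 93.9%, 59.8%, 95.6% and 52.0%. With peaks of fold 5 or more they were 96.0%, 71.7%, 93.8% and 39.4%. With overlap of 50%, other peaks were met in 72.3% and 28.8%. A promoter window of 500 bp gave 96.9% and 92.7% for promoter peaks and one of 2.5 kb gave 95.3% and 85.1%. Merging nearby peaks gave 76.2% of other day 1, 92.2% of myotube promoter and 32.7% of other myotube peaks. The full annotation, chosen after seeing the data, gave 96.0%, 72.9%, 87.6% and 28.7%.

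Other shared regions shorter in myotubes numbered 79 with equal numbers and 78 at fold 5 or more (177 in the whole lists), and longer ones 334 at fold 5 or more (713). Fold relative to the median gave 866 promoter regions higher, 648 lower, and 1116 other regions higher and 109 lower. Coding genes gained numbered 280 and lost 484 with equal numbers. The loss in the sarcomere lists became 0 at 500 bp. Within 2 kb, 197 coding genes and 10 sarcomere genes were broader (389 and 21 within 5 kb). Over whole regions the share with CpG observed over expected of 0.6 or more was 39.5%, 25.7%, 13.1% and 1.76% (promoter both, promoter day 1 alone, other both, other myotubes alone). The causes of these shifts were not tested. Of the values for whole comparisons 57 stayed within the limit under the alternatives and 37 moved, and of those for single lists 400 stayed and 60 moved.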

Other observations

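Some genes marked in both lists had a myotube peak over a further annotated start, which does not show that the start is used. At 150 coding genes 156 groups of starts had a myotube peak and no day 1 peak, and 111 of these groups, in 106 genes, lay 5 kb or more from a start marked at day 1. At 31 of the 156, and at 8 of the 111, a myotube peak there also overlapped a day 1 peak and so extended one already present. In the other direction 67 start groups had a day 1 peak and no myotube peak, 43 of them 5 kb or more away, and at 21 of the 67 the day 1 peak overlapped a myotube peak. Neither count is set against all start groups compared, so no share is given. Folds at the 156 ran from 66.1 (Twf2) down to 2.88 (Gm12216). The lists hold 26024 myotube and 17653 day 1 peaks, and these counts were not repeated with equal numbers of peaks. The examples that follow were chosen after their values were seen. Mef2c, the muscle transcription factor, had a myotube peak of 7150 bp (fold 20.7) at a start 20295 bp from the nearest start marked at day 1, and Fbxw7, a ubiquitin ligase subunit, one of 7100 bp (fold 38.7) at 26666 bp, neither overlapping a day 1 peak. At Tpm3, a tropomyosin, the peak of 11373 bp reached a start 6889 bp away and overlapped the day 1 peak. The peaks of Myo18a, an unconventional myosin (11816 bp, 10140 bp away), and Pik3r1, the regulatory subunit of PI3 kinase (2786 bp, 75587 bp away), also overlapped a day 1 peak. Starts marked at day 1 alone included one of S100a10, an annexin partner (fold 90.0), where the day 1 peak overlapped a myotube peak. Another was a start of Lpp, a focal adhesion protein (fold 48.3), where the day 1 peak did not.

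Gene families were also taken after seeing the data. Of 45 genes with collagen symbols, Col4a3bp among them, 18 were marked in both lists. A peak was gained at 5 of the 22 unmarked at day 1 and lost at 5 of the 23 marked, and 6 of 17 were narrower. Over all coding genes these shares were 5.29% gained, 2.16% lost and 2.28% narrower. All 64 clustered histone genes, 86 ribosomal protein genes and 16 Hox genes with a day 1 peak also had one in myotubes. So did 47 of 47 proteasome, 45 of 45 complex I, 36 of 37 kinesin and 9 of 10 matrix metalloproteinase genes. Over all coding genes 12069 of 12335 kept it, so full retention in a family is near that background. Of those unmarked at day 1, 0 of 3 histone, 1 of 12 ribosomal protein and 3 of 23 Hox genes gained one. Chromosome X held 0.939% of other regions in myotubes alone (interval 0.751 to 1.16), 4.17% of those in day 1 alone (3.17 to 5.37) and 2.57% of those in both (2.07 to 3.15).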
